A study of Apis mellifera with 6 samples.

Results

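A set of 65 gene models was defined by 1 pattern of RNA level in the hypopharyngeal gland of worker honeybees (Apis mellifera): high in colonies with a freely laying queen, and at about the same lower level with and without pollen when queens were caged to reduce the brood. The members were chosen on these values, from 5018 eligible models of 10704 listed. Each library's raw fragment counts were divided by its size factor, the median over 4633 models of the ratio to the model's geometric mean across libraries, and the result is called scaled fragments below. A model was eligible if it had a numbered ID, under 10000 raw fragments in every library and a largest group mean of 30 or more scaled fragments, with 1 abundant model left out by name. A member's lowest Brood library was at least 3 times its highest Honey or Pollen library, and its Honey and Pollen means lay within 1.5-fold of each other. Every level and ratio of the members below is therefore a description of the values that chose them.

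The hypopharyngeal gland is a paired gland in the head of the worker. In nurse bees it secretes the protein-rich food given to larvae and the queen, and it is known to shrink when bees move on to foraging, when its output shifts towards enzymes that process nectar sugars. Pollen is the colony's protein source, and pheromones released by larvae are known to act on the nurses' glands.

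RNA was sequenced from dissected glands of 6 colonies, 2 in each of 3 groups. Honey colonies had honey and no pollen, with a caged queen that reduced the brood. Pollen colonies had honey with rape pollen and likewise a caged queen, and Brood colonies had honey with rape pollen and a queen free to lay. The sample labels give ages of 11 and 12 days for Honey 1 and 2, 9 and 10 days for Pollen 1 and 2, and 13 and 14 days for Brood 1 and 2, whereas the series text gives 9 days for all. By the sample labels Brood bees were the oldest and Honey bees were older than Pollen bees. Neither brood nor pollen can therefore be told apart from age here. The sources used here do not say how many bees gave each library. Libraries held 2764870 to 4153354 counted fragments. None of the IDs matched any of the 12398 genes of the reference table, so no name, role or pathway is given to a member and the tissue could not be checked against marker genes. At most 2 members are given by ID, and the others by linkage group and coordinates of the authors' files, whose genome build is not named in the sources used here.

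Together the members held a small part of the RNA, and a larger one in the Brood libraries. Their summed scaled fragments were 2610.1 and 2604 in Honey 1 and 2, 2662 and 2908 in Pollen 1 and 2, and 14649 and 14980.0 in Brood 1 and 2. The Brood mean of 14814.5 ± 234 stood against 2607 ± 4.47 for Honey and 2785 ± 174 for Pollen (SD, n = 2 per group), so the sum in Brood was 5.32 times that in Pollen and 5.68 times that in Honey. Pollen and Honey differed by 1.07-fold. As a share of all counted fragments, without any size factor, the members made up 0.128% (95% exact binomial interval 0.125 to 0.131) in Honey 1, 0.103% (0.0997 to 0.107) in Honey 2, 0.0611% (0.0587 to 0.0635) in Pollen 1, 0.0822% (0.0792 to 0.0852) in Pollen 2, 0.293% (0.287 to 0.299) in Brood 1 and 0.318% (0.312 to 0.324) in Brood 2. These intervals cover counting error only. On this scale both Brood libraries were again the highest, and both Pollen libraries lay below both Honey libraries. Eligible models held 2349243 and 1533207 fragments in Honey 1 and 2 and 1342011 and 1304119 in Pollen 1 and 2. In Brood 1 and 2 they held 839694 and 834904. As a share of these, the members made up 0.224% and 0.187% in Honey and 0.189% and 0.223% in Pollen, which overlap. In Brood 1 and 2 this share was 1.21% and 1.34%. In bulk RNA, fewer cells of a type and less RNA per cell cannot be told apart.

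**Figure D1:**
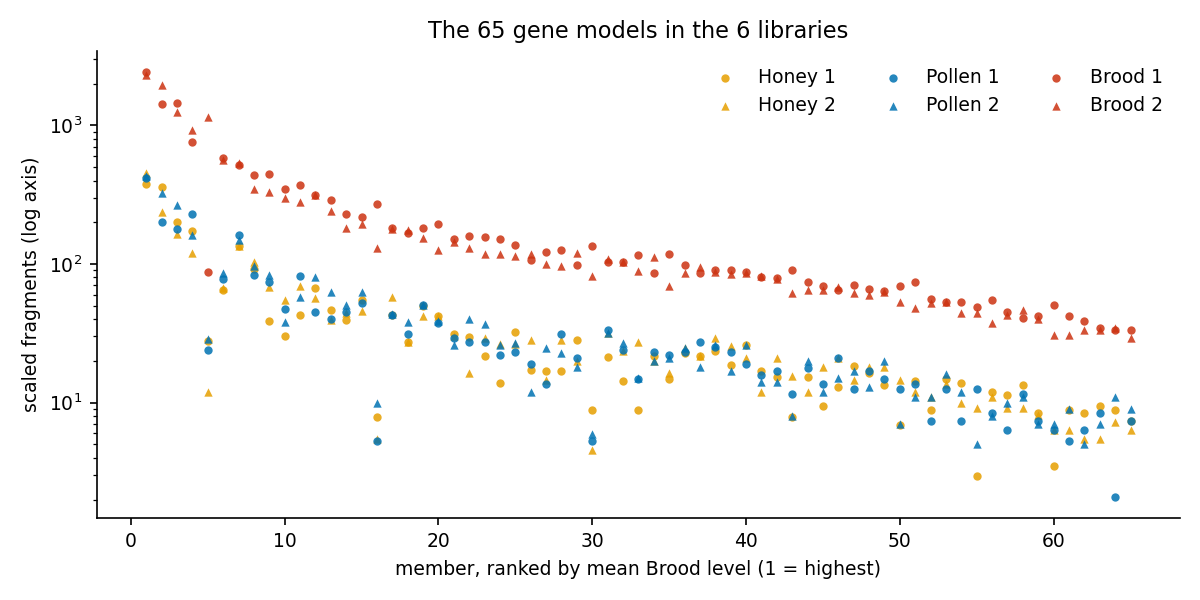
Scaled fragments (vertical log axis) of each of the 65 members in the 6 libraries, with members ranked by their mean Brood level (horizontal axis) and 1 point per library, coloured by group. Brood points lie above all Honey and Pollen points of the same member, as the rule requires, and the Brood libraries of the member at rank 5 are 88.2 and 1150 scaled fragments, the widest gap.

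The rule used 2 distances. Of the 5018 eligible models, 105 (2.09%) had the lowest Brood library at 3 times the highest other library or more. Of these 105, 65 also had Honey and Pollen means within 1.5-fold, while 31 had a higher mean in Pollen and 9 a higher mean in Honey. Among all eligible models, 64.2% had Honey and Pollen means within 1.5-fold. The opposite pattern, with the lowest other library at 3 times the highest Brood library or more and the same limit on Honey and Pollen, was met by 313 models, or 6.24% of those eligible. Falls in Brood with Honey and Pollen level were thus listed more often than rises by the same distances. Of the 181 authors' added models that reached the same minimum level and stayed under 10000 fragments, 2 had the members' pattern. They are no members, since the rule asks for a numbered ID. Raising the upper limit of 10000 fragments added 0 models.

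**Figure D2:**
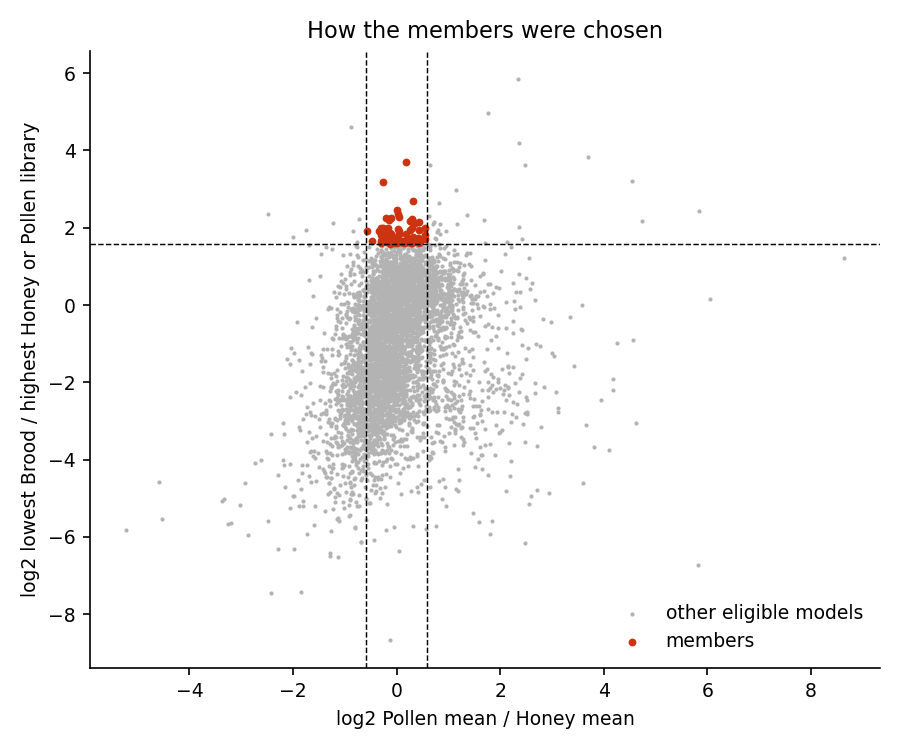
Each point is an eligible model, with log2 of the Pollen mean over the Honey mean (horizontal axis) against log2 of the lowest Brood over the highest other library (vertical axis), and dashed lines at the limits of 3-fold and 1.5-fold. The 65 members fill the lower edge of the box at the top, and 43 eligible models with a Brood library at 0 are not drawn.

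Most members lay close to the 3-fold limit. The ratio of the lowest Brood to the highest other library was 3 to under 3.5 in 35 members, 3.5 to under 4 in 16, 4 to under 5 in 9, 5 to under 10 in 4 and over 10 in 1, with a median of 3.48. As group means, the Brood level was 3.45 to 28.0 times the mean of the other 4 libraries, with a median of 4.79. Just inside the limit were models on linkage group 1 at 4832067 to 4833121 (ratio 3.02), on linkage group 8 at 11545842 to 11546799 (3.03), on an unplaced scaffold at 80897 to 85951 (3.03) and on linkage group 2 at 10022671 to 10024818 (3.03). Just outside it were models on linkage group 15 at 2543126 to 2544075 (2.95), on linkage group 1 at 27084925 to 27086432 (2.95), on linkage group 12 at 8803255 to 8804695 (2.94) and on linkage group 1 at 5592799 to 5595061 (2.93). The step across the limit is small beside the spread of replicates in the member at 4832067, whose Brood libraries were 195 and 127 scaled fragments. Replicates were closer in the others just inside, at 91.0 and 88.1 on linkage group 8, 33.2 and 34.7 on the unplaced scaffold and 40.5 and 46.7 on linkage group 2. At the 1.5-fold limit, the nearest member inside, on linkage group 1 at 1953824, had a Pollen mean 0.678 times its Honey mean. The nearest model outside, on linkage group 15 at 8765463, had 1.52 times. The lowest Brood mean inside was 31.3 scaled fragments, and the nearest model below the minimum of 30 had 28.0.

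Raw counts behind the members were low outside Brood. Their raw counts ran from 23 to 1680 fragments in Brood 1 and from 22 to 1730 in Brood 2, with medians of 68 and 71. In the other libraries the medians were 35 and 23 in Honey 1 and 2 and 21 and 20 in Pollen 1 and 2, and the lowest single value was 2, in Pollen 1. No member was at 0 in any library. With both Brood libraries pooled against the other 4 and divided by the summed size factors, the ratio was 3.48 to 27.1. Size factors were 2.02 and 1.099 for Honey 1 and 2, 0.953 and 1.00 for Pollen 1 and 2, and 0.692 and 0.749 for Brood 1 and 2, so a fragment in Brood counts for more than one elsewhere.

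The member with the highest Brood level was gene4786, on the plus strand of linkage group 5 at 14212941 to 14217998, with a listed length of 1586 bases. Its scaled fragments were 381 and 455 in Honey 1 and 2, 419 and 429 in Pollen 1 and 2, and 2428 and 2310.2 in Brood 1 and 2. The Honey and Pollen libraries overlapped and both Brood libraries stood well apart from them. The Brood mean was 2369 ± 83.2, against 418 ± 52.7 in Honey and 424 ± 7.31 in Pollen (SD, n = 2 per group), which is 5.63 times the mean of the other 4 libraries. Next in level was a pair with very short models. The model on linkage group 2 at 3345340 to 3345924, 585 bases long, had 357 and 236 in Honey, 203 and 327 in Pollen and 1426 and 1962 in Brood. The model on the minus strand of linkage group 1 at 17402741 to 17403265, 525 bases long, had 199 and 165 in Honey, 179 and 266 in Pollen and 1447 and 1249 in Brood. Only these 3 members reached a Brood mean of 1000 scaled fragments, 30 lay between 100 and 1000, and 32 lay under 100. The median Brood level was 5.13 times the others in the 33 members at 100 or more and 4.66 times in the 32 below.

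Below these came 5 members with Brood means from 394 to 843 scaled fragments, of which 4 had Brood libraries within 1.5-fold. On linkage group 6 at 7481643 to 7485882, a model of 400 bases had 174 and 119 in Honey, 228 and 162 in Pollen and 757 and 929 in Brood. On linkage group 10 at 9603943 to 9607874, a model of 1015 bases had 65.3 and 67.3 in Honey, 77.7 and 86.8 in Pollen and 579 and 565 in Brood. Its replicates lay close together, and its ratio of lowest Brood to highest other library, 6.51, was the second largest among the 28 members with 100 or more scaled fragments in both Brood libraries. On linkage group 5 at 7673042 to 7676464, a model of 1857 bases had 135 in each Honey library, 163 and 149 in Pollen and 514 and 538 in Brood. The longest member, 2359 bases on an unplaced scaffold at 10628 to 15312, had 91.6 and 104 in Honey, 84.0 and 96.8 in Pollen and 438 and 350 in Brood.

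In 1 member the level of the Brood group came mainly from a single library. On linkage group 6 at 7013783 to 7017065, it had 27.7 and 11.8 scaled fragments in Honey 1 and 2 and 24.1 and 28.9 in Pollen 1 and 2. It had 88.2 in Brood 1 and 1150 in Brood 2, which are 61 and 861 raw fragments. Its Brood mean of 619 ± 751 (SD, n = 2) is therefore no common level, and its ratio by lowest library was 3.05. Apart from this 13.0-fold gap, the Brood replicates of most members were close. The Brood libraries lay within 1.5-fold in 58 of the 65 members (89.2%), against 64.97% of eligible models, although the rule favours this by using the lower library. Next widest were gene1789, described below, and a model on linkage group 10 at 6339225 to 6340152 with 118 and 69.4. The level was higher in Brood 1 in 50 members and in Brood 2 in 15, with a median of Brood 1 over Brood 2 of 1.11, against 1.08 over eligible models.

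The most separated member was gene1789, on the minus strand of linkage group 2 at 3342875 to 3343507, with 633 bases. It had 7.92 and 5.46 scaled fragments in Honey 1 and 2, 5.25 and 9.98 in Pollen 1 and 2, and 270.2 and 131 in Brood 1 and 2. As raw fragments these are 16, 6, 5 and 10 in Honey and Pollen and 187 and 98 in Brood, so both Brood libraries stood far above the other 4, which rest on few fragments. The Brood mean was 28.0 times the mean of the other 4, while its Brood libraries differed by 2.06-fold. Of the others with large ratios, the member on linkage group 1 at 28305776 to 28307881 had 30.2 and 54.6 in Honey, 47.2 and 37.9 in Pollen and 350 and 300.5 in Brood, a ratio of 5.50 between its lowest Brood and highest other library. Further members with large ratios lay on linkage group 11 at 557872 to 561299 (4.63), on linkage group 14 at 971822 to 973702 (4.50) and on linkage group 1 at 4635996 to 4637177 (4.38). A member of low level, on linkage group 4 at 5834911 to 5839489 with 2264 bases, had 8.91 and 4.55 in Honey, 5.25 and 5.99 in Pollen and 134 and 81.5 in Brood, a ratio of 9.14. Its last 813 bases overlap a model on the opposite strand at 5838677 to 5849018 that had 13.4 and 8.19 in Honey, 34.6 and 21.0 in Pollen and 175 and 369 in Brood. The sources used here do not say if fragments were counted by strand, so those of the overlap may not be separable.

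Between Honey and Pollen the members lay close by construction. The Pollen mean was 0.678 to 1.47 times the Honey mean, with a median of 1.01, and 21 members had means within 1.1-fold. The Pollen mean was the higher in 37 members and the Honey mean in 28. In 51 members the Honey and Pollen libraries overlapped, in 10 both Pollen libraries were above both Honey libraries (25.2% of eligible models), and in 4 both Honey libraries were above both Pollen libraries (33.1% of eligible models). The rule holds these means together, so nothing is read from those counts. A mean within 1.5-fold did not make all 4 libraries alike, as their spread had a median of 1.58-fold and reached 5.23-fold in the member with 2 raw fragments in Pollen 1. In 29 members all 4 lay within 1.5-fold.

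In a test across all models (edgeR's quasi-likelihood test on raw counts, Benjamini-Hochberg adjusted p under 0.05, 2 against 2 libraries in a fit over all 6), the members' calls restate the rule. All 65 passed the filter on low counts and were called higher in Brood than in Pollen, where 22.4% of the 6943 models tested were called higher (48.4% in either direction), and higher in Brood than in Honey, where 28.4% were (57.2% in either direction). Between Pollen and Honey 0 members were called, where 6.16% of models were (4.32% higher in Pollen), and 0 members had an unadjusted p under 0.05 by this test or by DESeq2, which likewise called 0. The median log2 change of the members was 2.46 for Brood over Pollen, 2.55 for Brood over Honey and 0.11 for Pollen over Honey, beside medians over all models between -0.01 and 0.05. Both Brood comparisons use the same Brood libraries.

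The rule did not use the length of the models, and the members were shorter than most eligible models. Their median listed length was 924 bases (quartiles 633 and 1293, range 270.0 to 2359), against 2123.5 bases over eligible models (quartiles 1232 and 3621). Of the 65 members, 62 were shorter than that eligible median. Under 1000 bases were 37 members (56.9%), against 18.3% of eligible models. With the eligible models split by length into 5 classes of about 1000 each, the shortest class, at 171 to 1056 bases, held 42 members, the next, up to 1729 bases, held 16, and the middle one, up to 2541 bases, held 7. The longest 2 classes, from 2544 bases up, held 0. The 313 models with the opposite pattern had a median length of 4396 bases, and 169 of them were in the longest class and 2 in the shortest. Shortest of the members were a 270.0-base model on linkage group 12 at 10471487 to 10471936, with Brood values of 73.7 and 48.1, and a 312-base model on linkage group 1 at 17332042 to 17332353, with 56.4 and 52.1.

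**Figure D3:**
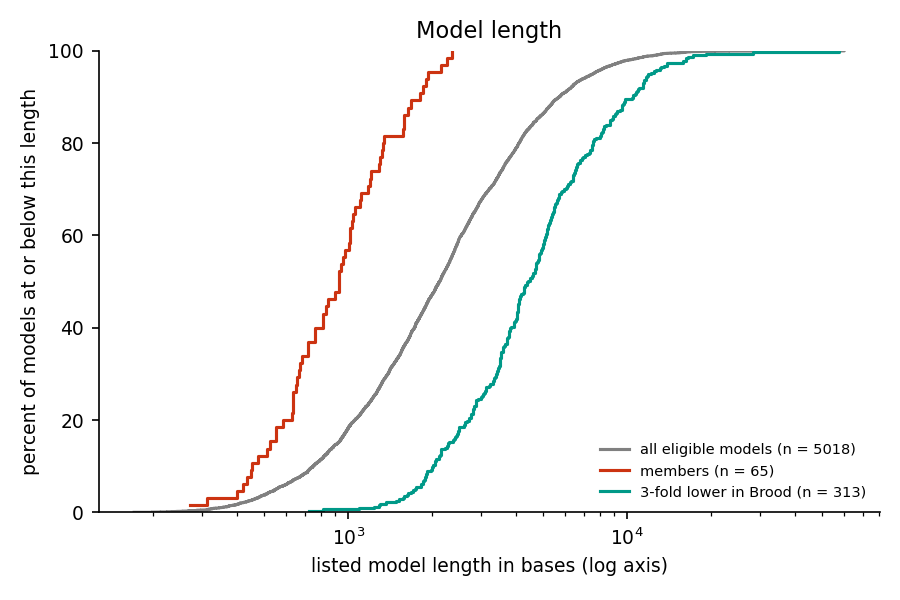
Percent of models (vertical axis) at or below each listed length in bases (horizontal log axis) for the 5018 eligible models, the 65 members and the 313 models that were 3-fold lower in Brood with Honey and Pollen means within 1.5-fold. The members' curve lies to the left of all eligible models, with a median of 924 against 2123.5 bases, and that of the models lower in Brood lies to the right.

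Length moved with group over all models, not the members alone. Across the eligible models, the median log2 ratio of the Brood mean to the mean of the other 4 libraries (0.5 added to each) went from 1.06 in the shortest class to 0.56, -0.15, -0.99 and -1.73 in the longest. A smooth trend of log2 level on log2 length, fitted in each library and read at 924 bases, was -0.37 and -0.36 in Honey 1 and 2, -0.12 and -0.19 in Pollen 1 and 2, and 0.68 and 0.40 in Brood 1 and 2. With these trends removed, all 65 members still had their lowest Brood library above the highest other library, by 1.11 to 10.0 times with a median of 2.09. This held for 26.2% of all eligible models in this setting and for 31.3% before removal, and since the members were chosen on this ratio, nothing is read from their count. At 2 times or more were 36 members, and 9 still met the whole rule, among 26 models that met it in this setting. The median length of these 26 was 3787 bases. The ratio after removal was 0.328 to 0.664 of that before in the 37 members under 1000 bases, and 1.04 to 1.13 of it in the 3 over 2000 bases.

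**Figure D4:**
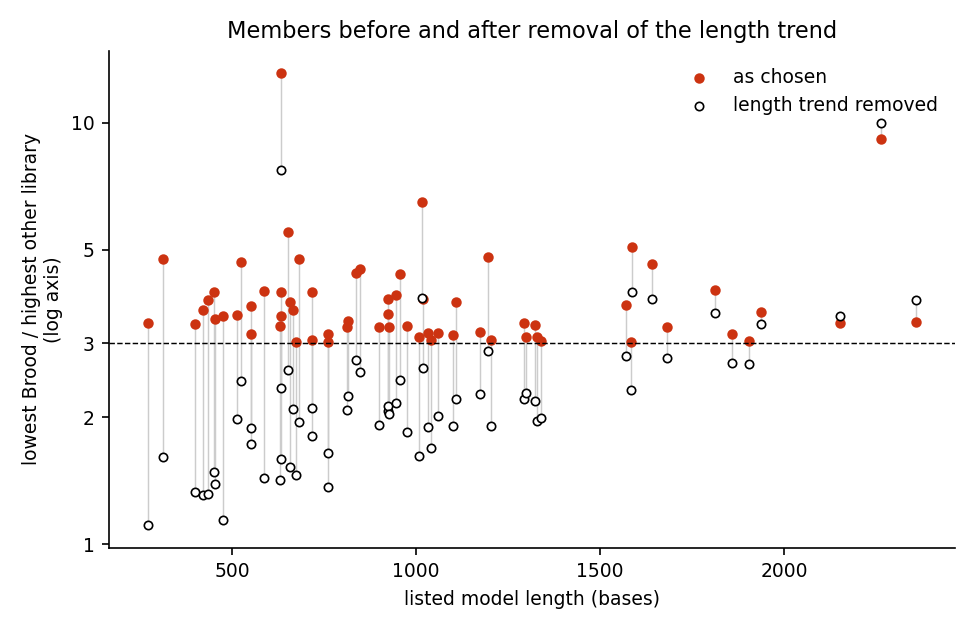
Ratio of the lowest Brood to the highest other library (vertical log axis) for each member against its listed length in bases (horizontal axis), as chosen (filled) and after removal of each library's length trend (open), with a dashed line at 3. The 37 members under 1000 bases keep 0.328 to 0.664 of their ratio, and the 3 members over 2000 bases have slightly higher ratios than before.

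The 9 members that met the rule with and without the trend had a median length of 1813 bases. They include gene4786, with a ratio of lowest Brood to highest other library of 3.97 after removal against 5.08 before, and gene1789, with 7.74 against 13.1. The model at 5834911 on linkage group 4 had the largest, 10.0 against 9.14. The rest were those at 9603943 on linkage group 10 (3.84), at 10628 on an unplaced scaffold (3.81), at 557872 on linkage group 11 (3.83), at 2551617 on linkage group 15 (3.54), at 7301641 on linkage group 5 (3.48) and at 8699217 on linkage group 11 (3.34). The last had only 24 and 25 raw fragments in Brood 1 and 2.

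Scaling by library totals alone, in place of size factors, set the Brood libraries lower against the rest. The log2 change of the median model was then -0.46 for Brood over Pollen and -1.30 for Brood over Honey, and that of the members was 1.98 and 1.19. Relative to the median model the members were 2.44 and 2.49 higher on the log2 scale, against 2.46 and 2.50 in the main fit. A change of scaling shifts all models of a library alike, so this distance was bound to stay and shows no stability. Under the rule itself, with library totals, 1 of the 65 was chosen, among 9 models in all. With that scaling the edgeR test called 65 members higher in Brood than in Pollen, 39 higher in Brood than in Honey and 2 lower in Pollen than in Honey. Over all models tested, the shares called in those directions were 7.96%, 4.39% and 33.3%.

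Per base of model the members were well above the typical model in Brood. Scaled fragments per kilobase of listed length in Brood were 17.6 to 2896, with a median of 118, against 35.3 over eligible models. The members were chosen for a high Brood level and are shorter, with a median of 924 against 2123.5 bases. Before division by length their median Brood mean was 103 scaled fragments, against 63.1 over eligible models. Models of like length were not compared. The highest was the 585-base model on linkage group 2 at 3345340, with 506 in Honey, 453 in Pollen and 2896 in Brood. On the authors' own scale, FPKM, the Brood means of the members had a median of 29.4, against 7.75 over eligible models. Their FPKM does not always follow the listed length. In 4 members it was over 2 times what the listed length gives, up to 4.03 times for a model on linkage group 15 at 8344754 to 8345992.

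Members lay on 14 of the 16 linkage groups, with 11 on linkage group 1, 8 each on linkage groups 5 and 15, 7 on linkage group 11 and 6 on unplaced scaffolds, and with 0 on linkage groups 13 and 16. As shares of the eligible models there, these are 1.72% of 638, 2.23% of 359, 2.76% of 290, 1.70% of 411 and 1.95% of 308, against 1.30% over all. The plus strand held 34 and the minus strand 31. Within 100000 bases of another member were 15 of the 65, and 6, in 3 pairs, were within 10000 bases. There were 8 members that overlapped another model, in each case on the opposite strand, and 2 of them lay inside it.

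The first pair, 1832 bases apart and pointing away from each other, is gene1789 and the 585-base model at 3345340 on linkage group 2. They sit in a stretch of 8 models of 468 to 794 bases within 19161 bases, from 3341091 to 3360251. Summed over the 8, the scaled fragments were 930.4 and 511 in Honey 1 and 2, 377 and 703 in Pollen 1 and 2, and 8108 and 10974 in Brood 1 and 2. The Brood mean of 9541 ± 2026 was 17.7 times the Pollen mean of 539.7 ± 230.3 and 13.2 times the Honey mean of 720.5 ± 297 (SD, n = 2 per group). In 7 of the 8 both Brood libraries were above all others, and 5 had the 3-fold distance, including the 2 members. Among all eligible models of the shortest length class, 68.2% had both Brood libraries above all others and 6.27% had the 3-fold distance.

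The largest part of the Brood sums, 58.8% in Brood 1 and 46.7% in Brood 2, came from a non-member at 3347160 to 3348176. It had 4764 and 5126 scaled fragments in Brood, against 194 and 78.3 in Honey and 40.9 and 107 in Pollen. It was not a member because its Pollen mean was 0.542 times its Honey mean. Those at 3356222 and 3359661 had the distance too but missed the limit on Honey and Pollen, with Pollen over Honey at 0.602 and 1.77. The model at 3351145 had 390.2 in Brood 1 and 2034 in Brood 2, against 157 in Honey 1, and the one at 3353501 had at most 16.02 in any library. At the right end a long model, from 3360961 to 3419696 with 5276 bases, went the other way, at 507 and 424 in Honey, 177 and 351 in Pollen and 99.7 and 72.1 in Brood. The stretch was singled out after its values were seen, and all 8 of its models are short.

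**Figure D5:**
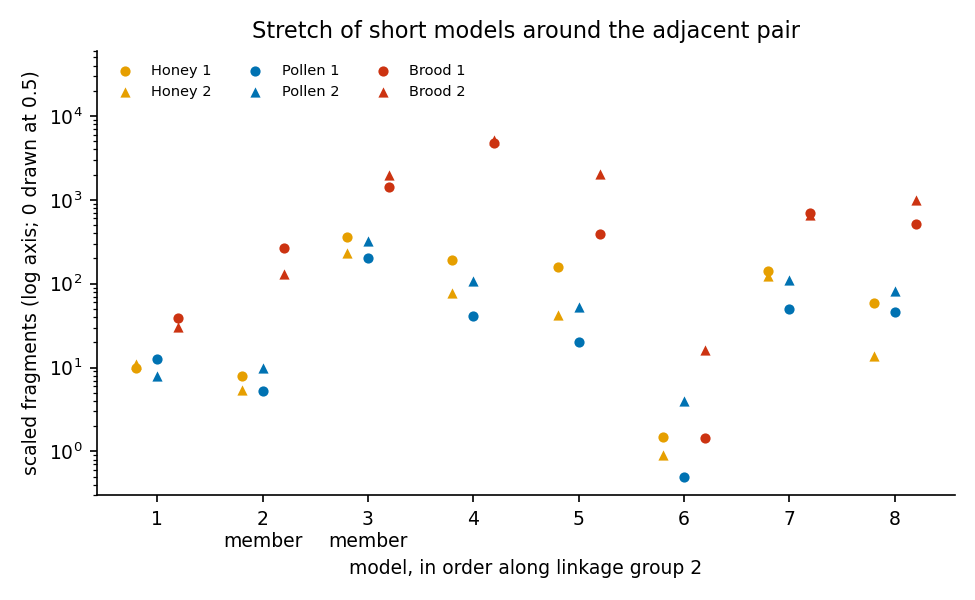
Scaled fragments (vertical log axis, a 0 drawn at 0.5) in each library for the 8 short models from 3341091 to 3360251 on linkage group 2, in order along the sequence (horizontal axis). Both Brood libraries are above all others in 7 of the 8, and the 2 members are at places 2 and 3.

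The second pair of members is on linkage group 15, where a model of 1813 bases at 2551617 to 2557215 and one of 666 bases at 2557613 to 2558613 point towards each other, 397 bases apart. The first had 16.8 and 14.6 in Honey, 13.6 and 24.9 in Pollen and 123 and 100.2 in Brood. The second had 231 and 183 in Brood, against 39.6 and 44.6 in Honey and 45.1 and 50.9 in Pollen. To their left, 3 of the nearest 4 models, at 2538454, 2543126 and 2548664, also had both Brood libraries above the others, by 1.95, 2.95 and 1.26 times. These have 1311, 672 and 1692 bases. Both Brood libraries were above all others in 31.3% of eligible models and in 68.2% of the shortest length class. To their right, the model at 2558900 to 2569467 had 87.1 and 78.3 in Honey, 32.5 and 56.9 in Pollen and 26.0 and 37.4 in Brood.

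The third pair, 9933 bases apart on linkage group 11, had a model between them that went the other way. The member at 8688198 to 8689283 had 449 and 328 in Brood, against 38.6 and 68.3 in Honey and 74.5 and 82.8 in Pollen. The one at 8699217 to 8701526 had 34.7 and 33.4 in Brood, against 9.40 and 5.46 in Honey and 8.40 and 6.99 in Pollen. The model between them, at 8692839 to 8698429, had 241 and 298 in Honey, 232 and 149 in Pollen and 40.5 and 41.4 in Brood. The first of the members lies wholly inside a 6486-base model on the opposite strand, at 8682678 to 8692185, which had 117 and 113 in Honey, 120 and 93.8 in Pollen and 23.1 and 18.7 in Brood. Neighbours thus had opposite patterns there.

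Over the whole set, the 123 non-member models directly beside a member included 77 eligible ones. Their median log2 ratio of Brood to the other libraries was 0.37, against -0.23 over all eligible models. A Brood mean over 2 times that of the others was found in 23 of the 77 (29.9%), against 20.7% of eligible models, and one under 0.5 times in 18 (23.4%), against 34.7%. These neighbours were shorter than the typical model too, with a median of 1741 bases, and the part of length in this was not tested.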

How the data were processed

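RNA of hypopharyngeal glands was sequenced in 6 libraries, made from 3 ug of total RNA each, per the labels' protocols. The aligner, counting tool, annotation, build and use of strand are not given in the sources used here. Per the file headers, the authors deposited a raw fragment count, a normalized count and an FPKM value for each of 10704 models. The deposited normalized count, a signal, was the raw count times 1 factor per library within 0.02 fragments for 68.1% to 69.2% of models above 0. A header line repeated inside each file was dropped.

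Size factors used models with 10 or more fragments in all 6 files. Counts were tested with edgeR 4.0.16 in R 4.3.3 (filterByExpr, minimum count 10, TMM, quasi-likelihood test, two-sided, 3 group means, 3 residual degrees of freedom, Benjamini-Hochberg threshold 0.05). The code was also run on simulated counts with a common dispersion and no length trend. That run does not show how the test performs on data with such a trend. DESeq2 1.42.0 was an alternative. The colonies were separate per the labels, and replicate counts differed by 24.9 to 102 times the sampling variance. Length trends were lowess fits (span 0.3, statsmodels 0.14.6) to log2 deviations from each model's mean. Linkage groups follow the sequence identifiers. An exact permutation test of 2 against 2 libraries was not used, since it cannot pass 0.05.

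Members, lists and settings were chosen with earlier results of these data known. By a rule set with them, at most 2 IDs were printed: the highest Brood mean, and the largest ratio among members with 100 or more scaled fragments in both Brood libraries. The 8 highest by each measure, the nearest 4 on each side of the 3-fold limit, the 3 longest, shortest and most discordant in Brood, and adjacent members were given by position. Models at the other limits, overlapping or close models and the stretch on linkage group 2 were picked after their values were seen.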

Additional observations from a re-analysis of the deposited data

How the results depend on the processing

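The number of models meeting the rule (65) became 9 with library totals alone, 103 with the authors' normalized count and 26 with the length trend removed, which took the median length from 924 to 3787 bases. It became 248 at 2 times, 5 at 5 times and 33 with a largest group mean of 100 or more, by construction. The cause of the other shifts was not tested. With 1 library left out at a time, 70 to 169 models met it, with 100 without Pollen 1, 86 without Brood 1 and 169 without Brood 2. Between 55 and 65 of the members were among them. Fewer libraries then have to meet the limits, and why the counts differ between libraries was not tested. With TMM-scaled totals 83 models met the rule, 62 of them members, and 43 members met it with TMM and with every single library left out. Of the members, 39 were called in Brood vs Honey and 2 in Pollen vs Honey with library totals alone, against 65 and 0, where 4.39% of all models were called higher in Brood and 33.3% lower in Pollen. With the length trend removed 62 were called in Brood vs Honey, where 20.3% of all models were called higher in Brood, against 28.4% before removal. The members' median log2 change in Brood vs Honey fell from 2.55 to 1.69. With the replicate number as a block, 65, 65 and 0 members were called in Brood vs Pollen, Brood vs Honey and Pollen vs Honey, as without it, and the counts were 65, 65 and 0 with any 1 library left out, where the remaining library of its group is taken to have the spread of the others. The rule nearly fixes these counts, so they show no stability. Over all models, 31.5% to 43.8%, 41.6% to 54.9% and 1.87% to 7.44% were called with 1 library left out, and 47.7%, 56.2% and 6.27% with the block. Deviations of same-numbered libraries correlated at -0.094, 0.040 and 0.152 between groups. With 1 such value per pair of groups, this cannot decide whether same-numbered libraries shared a batch. Low counts outside Brood, with medians of 20 to 35 fragments per library, limit the ratios.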

Other observations

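Among models that the authors added to the annotation, 2 had the members' pattern without being members. The one on linkage group 1 at 11972346 to 11973036, with 338 bases, had 65.03 and 54.75 scaled fragments in Brood, against 6.93 and 17.3 in Honey and 14.7 and 11.0 in Pollen. The one on linkage group 15 at 2613975 to 2616587, with 1914 bases, had 96.8 and 94.8 in Brood, against 18.3 and 27.3 in Honey and 25.2 and 29.9 in Pollen. In both, the Brood libraries lay close together and the other 4 overlapped.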
